A study of Homo sapiens with 3 samples.

Results

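The transcripts of the mitochondrial genome were followed in 3 lines of HaCaT, a human keratinocyte line that became immortal spontaneously. They were taken as every gene whose symbol begins with MT-, which gave 37 of the 57773 genes in the expression table, and all 37 are accounted for. They comprise 13 protein-coding genes, 2 ribosomal RNA genes and 22 transfer RNA genes. The question taken up was whether the 3 classes differ between the lines, and whether they do so together.

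Every line, the control included, expresses the oncogenic HRasG12V mutant. The lines differ in what was transduced next, which was THG-1 S264A (an alanine takes the place of a serine of the protein), wild-type THG-1 (WT) or an empty vector. THG-1 is the protein encoded by TSC22D4. Cells were grown in DMEM with fetal bovine serum, total RNA was extracted with Trizol, and a NextSeq500 read 1 library of each line, per the labels. The labels do not say whether a line is 1 clone or a pool. With 1 library per line there is no spread between replicates, no test was run, and a difference between lines cannot be told apart from variation between cultures. Likewise, fewer mitochondrial DNA copies, fewer transcripts per copy and faster decay cannot be told apart in an RNA level.

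Mitochondrial DNA is a small circle that is transcribed on both strands by a polymerase of its own, POLRMT, with the factors TFAM and TFB2M. Each strand yields a long precursor. Transfer RNAs punctuate these precursors, and their excision by RNase P and ELAC2 frees the messenger and ribosomal RNAs between them, which then differ in level by their own stability. The messenger RNAs encode core subunits of respiratory complexes I, III and IV and of ATP synthase, while the ribosomal RNAs form the mitochondrial ribosome that translates them. The precursor from the heavy-strand promoter carries both ribosomal RNAs, 14 transfer RNAs and all messenger RNAs but MT-ND6, and the precursor from the light-strand promoter carries MT-ND6 and 8 transfer RNAs.

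The genes on which the transfer RNA results turn are given here as DNA in the sense of the RNA, with the anticodon in capitals, from the GENCODE release 29 annotation of GRCh38. MT-TP (proline, chrM:15956-16023, minus strand) had the highest level of the class in every library. MT-TE (glutamate, chrM:14674-14742, minus strand) and MT-TL1 (leucine, chrM:3230-3304, plus strand) differed between lines. MT-TD (aspartate, chrM:7518-7585, plus strand), MT-TK (lysine, chrM:8295-8364, plus strand) and MT-TR (arginine, chrM:10405-10469, plus strand) had no read in any library.
MT-TP: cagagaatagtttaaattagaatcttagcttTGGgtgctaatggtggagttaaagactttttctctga
MT-TE: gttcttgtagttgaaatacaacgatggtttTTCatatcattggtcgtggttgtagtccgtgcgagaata
MT-TL1: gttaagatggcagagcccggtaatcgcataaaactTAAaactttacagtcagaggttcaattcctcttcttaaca
MT-TD: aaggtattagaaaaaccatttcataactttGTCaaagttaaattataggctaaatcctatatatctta
MT-TK: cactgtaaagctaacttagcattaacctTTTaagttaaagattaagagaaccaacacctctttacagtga
MT-TR: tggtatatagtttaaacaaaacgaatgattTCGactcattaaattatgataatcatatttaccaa
These genes are short, 65 to 75 bases, so that 1 read in a gene of 70 bases is worth 1.02 RPKM in the S264A library, 1.12 in WT and 0.446 in empty vector.

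The pair MT-ATP8 and MT-ATP6, which encode the small and the large mitochondrial subunit of ATP synthase, overlap on the same strand. MT-ATP8 (chrM:8366-8572, plus strand) is printed in full, with the 46 bases it shares with the start of MT-ATP6 in capitals.
MT-ATP8: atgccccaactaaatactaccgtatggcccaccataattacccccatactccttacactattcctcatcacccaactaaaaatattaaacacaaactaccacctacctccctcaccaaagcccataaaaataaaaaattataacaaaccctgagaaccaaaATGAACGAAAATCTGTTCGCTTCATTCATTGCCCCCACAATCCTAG
The shared bases are 22.2% of MT-ATP8 and 6.75% of MT-ATP6, so that reads there cannot be assigned to 1 of the genes, and both are carried on 1 messenger RNA. MT-ND4L and MT-ND4, also carried on 1 messenger RNA, share 7 bases.

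Levels are RPKM, reads scaled by the length of the gene and by the depth of the library. Depth was 14022885 reads in S264A, 12733479 in WT and 32055052 in empty vector, so empty vector had 2.29 times the depth of S264A and 2.52 times that of WT. TSC22D4 stood at 51.1 RPKM in S264A and 64.9 in WT, against 7.98 in empty vector, in the direction the labels give. Of 8 keratinocyte markers, 7 reached 1 RPKM, and their summed level was 1150 RPKM in S264A, 1052 in WT and 819 in empty vector. The single markers were split. Against empty vector 4 were higher and 3 lower in WT, and 3 were higher and 4 lower in S264A. KRT14 had 382 RPKM in S264A, 287 in WT and 119 in empty vector, and LGALS7B had 13.3 in S264A, 2.07 in WT and 3.49 in empty vector. None of 6 fibroblast markers reached 1 RPKM in any library. Of the melanocyte, immune and endothelial markers 1 each did. The highest of these was CD68, a macrophage marker, with 1.70 RPKM in S264A, 5.21 in WT and 0.941 in empty vector.

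The 13 protein-coding genes were among the most abundant RNAs of these libraries. All but MT-ND3 ranked in the top 50 of each library, and 4 ranked in the top 10. MT-ND3 ranked 68 in S264A, 63 in WT and 75 in empty vector. MT-CO1, the catalytic subunit of complex IV, ranked 7 in every library. Summed over the 13, the level was 17063 RPKM in S264A, 18308 in WT and 17287 in empty vector. The ribosomal RNAs summed to 822 RPKM in S264A, 1282 in WT and 574 in empty vector. The transfer RNAs summed to 703 RPKM in S264A, 727 in WT and 584 in empty vector. The messenger RNAs far outweighed both other classes in these libraries, and the ribosomal RNA sum was furthest apart between the lines. Removal of rRNA or selection of poly(A) RNA is not given in the sources. The order of the classes thus describes the libraries and cannot be read as that in the cells. Together the 37 genes took 6.79% of the summed RPKM in S264A, 6.85% in WT and 6.95% in empty vector, or 1.81%, 1.99% and 1.79% of the reads. The share of the whole differed little between the lines on either measure.

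Within the messenger RNAs the order of levels was nearly the same in the 3 libraries. The genes of complex IV, which passes electrons to oxygen, led in each. MT-CO1 had 3034 RPKM in S264A, 3296 in WT and 3049 in empty vector. MT-CO2 had 2448 RPKM in S264A, 2152 in WT and 2693 in empty vector. MT-CO3 had 2305 RPKM in S264A, 2321 in WT and 2258 in empty vector. Of these, MT-CO2 was lowest in WT and so took a lower rank there than MT-CO3. MT-ATP6 followed with 1771 RPKM in S264A, 1954 in WT and 1907 in empty vector. MT-ATP8 had 896 RPKM in S264A, 1293 in WT and 893 in empty vector. MT-CYB, the cytochrome b of complex III, had 1174 RPKM in S264A, 1337 in WT and 1218 in empty vector. These 6 genes lay above every complex I gene but MT-ND4 in each library, and the level of MT-ATP8 in WT stood well above that in the other lines.

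The subunits of complex I, which takes electrons from NADH, spanned a wide range. MT-ND4 had 1692 RPKM in S264A, 1667 in WT and 1690 in empty vector. MT-ND4L, on the same messenger RNA, had 460 RPKM in S264A, 467 in WT and 468 in empty vector. Both were nearly level across the lines. MT-ND5 had 850 RPKM in S264A, 962 in WT and 796 in empty vector. MT-ND2 had 806 RPKM in S264A, 928 in WT and 838 in empty vector. MT-ND1 had 724 RPKM in S264A, 819 in WT and 638 in empty vector. All 3 were highest in WT as deposited. The 3 lowest messenger RNAs of every library were MT-ND6, MT-ND4L and MT-ND3. MT-ND6, the only one read from the light-strand precursor, had 618 RPKM in S264A, 788 in WT and 571 in empty vector. MT-ND3 had 286 RPKM in S264A, 322 in WT and 268 in empty vector. The highest messenger RNA exceeded the lowest by 10.6-fold in S264A, 10.2-fold in WT and 11.4-fold in empty vector. Across the 13 genes, which share 1 library per line, Pearson's r of log2(RPKM + 1) was 0.980 between WT and empty vector, 0.997 between S264A and empty vector and 0.986 between S264A and WT.

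**Figure D1:**
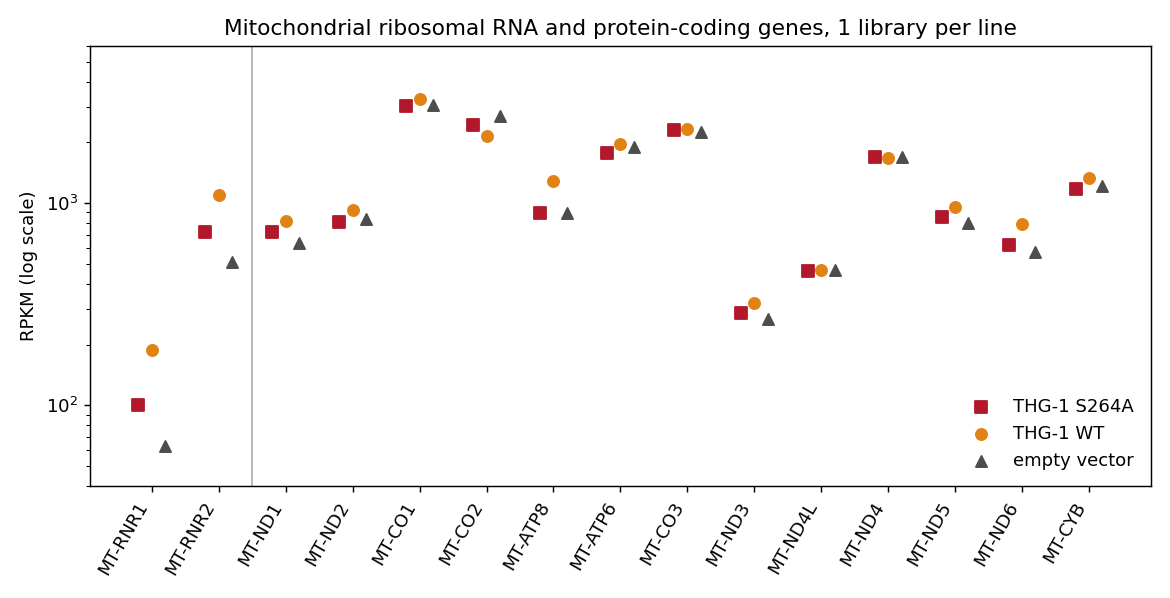
RPKM on a log axis of the 2 ribosomal RNA genes (left of the grey line) and the 13 protein-coding genes in genome order, with 1 point per library (square, S264A; circle, WT; triangle, empty vector). The 3 points of each protein-coding gene lie within 1.45-fold of each other, while those of MT-RNR1 lie at 101 RPKM in S264A, 188 in WT and 62.9 in empty vector.

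MT-RNR1 lay below every messenger RNA in each library, and MT-RNR2 lay within their range. MT-RNR1, the 12S RNA of the small ribosomal subunit, had 101 RPKM in S264A, 188 in WT and 62.9 in empty vector, from 1349, 2280 and 1922 reads. MT-RNR2, the 16S RNA of the large subunit, had 721 RPKM in S264A, 1094 in WT and 511 in empty vector, from 15768, 21719 and 25561 reads. Both were highest in WT, intermediate in S264A and lowest in empty vector. The level of 12S was 13.98% of that of 16S in S264A, 17.2% in WT and 12.3% in empty vector. Both lie on 1 precursor, and each ribosome holds 1 of each. Whether rRNA was removed is not given, and the part of such a step in these levels was not tested.

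Transfer RNA levels were spread widely, and most rested on few reads. Of the 22 genes, 6 had no read in S264A, 4 in WT and 3 in empty vector. At least 100 reads were found for 1 gene in S264A, 1 in WT and 5 in empty vector. MT-TP had 246 RPKM in S264A, 217 in WT and 191 in empty vector, from 235, 188 and 417 reads. MT-TY (tyrosine) had 85.4 RPKM in S264A, 108 in WT and 83.7 in empty vector. MT-TN (asparagine) had 88.9 RPKM in S264A, 78.5 in WT and 78.6 in empty vector. These 3 genes held the first 3 places in every library. The 5 highest genes held 78.2% of the summed transfer RNA level in S264A, 74.5% in WT and 79.8% in empty vector. In each library 4 of these 5 came from the light-strand precursor, the other being MT-TL2 (leucine) with 55.2 RPKM in S264A, 74.1 in WT and 46.6 in empty vector.

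The 8 transfer RNAs of the light-strand precursor made up 80.7% of the summed transfer RNA level in S264A, 77.9% in WT and 81.3% in empty vector, although they are 8 of 22 genes. Their median was 58.3 RPKM in S264A, 57.5 in WT and 46.0 in empty vector, against 4.54, 4.49 and 2.52 for the 14 of the heavy-strand precursor. The ranges overlapped, since MT-TQ (glutamine) and MT-TS1 (serine) of the light-strand precursor stayed at or under 5.63 RPKM in every library. Of the others on the light-strand precursor, MT-TA (alanine) had 73.4 RPKM in S264A, 51.2 in WT and 65.6 in empty vector, and MT-TC (cysteine) had 43.2 in S264A, 44.0 in WT and 26.5 in empty vector. On the heavy-strand precursor MT-TS2 (serine), MT-TT (threonine), MT-TI (isoleucine) and MT-TH (histidine) lay between 8.27 and 24.0 RPKM in all libraries. MT-TW (tryptophan) had 1 read in S264A, 1 in WT and 5 in empty vector, and MT-TG (glycine) had 2 reads in empty vector and none in the others. The 3 genes with no read in any library, MT-TD, MT-TK and MT-TR, are all on the heavy-strand precursor. G and C made up 23.1 to 32.9% of their bases, against 26.5 to 49.3% (median 40.8%) in the other 19. The median was 43.0% in light-strand and 35.8% in heavy-strand genes, and the part of strand or base content in the levels was not tested. A count of 0 allows up to 3 reads, which for MT-TK is 3.06 RPKM in S264A, 3.37 in WT and 1.34 in empty vector. The levels of these 3 genes were thus not detectable at this depth. The sources do not say whether counting used the strand, so that a transfer RNA read and a read of the antisense precursor cannot be told apart. The same holds for MT-ND6. Library selection and read length are not given either, so reads of mature transfer RNAs and of unprocessed precursors cannot be told apart. The transfer RNA values are thus reads over each gene and not amounts of mature transfer RNA.

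**Figure D2:**
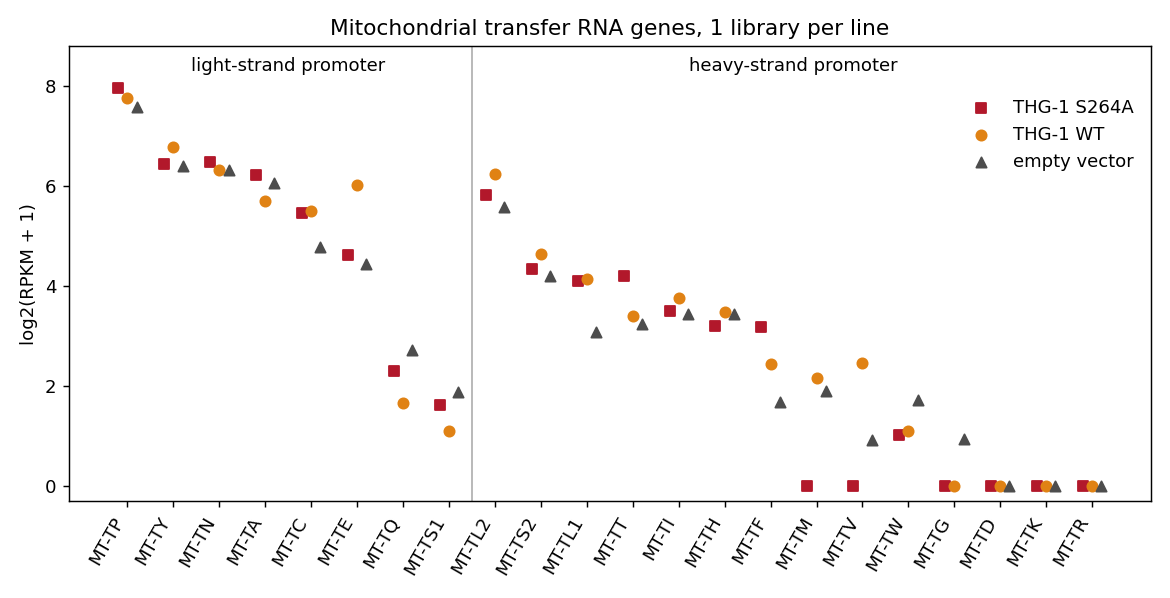
Level of each transfer RNA gene as log2(RPKM + 1), grouped by the promoter whose precursor carries it and ordered by mean level, with 1 point per library (square, S264A; circle, WT; triangle, empty vector). MT-TP is highest in every library, and MT-TE stands out for its WT point at 63.7 RPKM against 23.8 in S264A and 20.8 in empty vector.

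The comparison of WT with empty vector asks what wild-type THG-1 adds in HRasG12V cells. Of the 3 classes the ribosomal RNAs differed most: MT-RNR1 was 2.99-fold higher in WT (95% counting interval 2.81 to 3.17) and MT-RNR2 was 2.14-fold higher (2.10 to 2.18). Their sum was 2.23-fold that of empty vector (2.19 to 2.27), and it was higher in WT under every scaling tried. The protein-coding sum was 1.06-fold that of empty vector (1.05 to 1.07) as deposited, but lay below it with equal upper quartiles of the libraries (log2 ratio -0.18) or with equal sums of the other genes (-0.08). Making the upper quartiles equal takes the median of all genes from -0.01 to -0.22. Relative to the median gene the ribosomal RNA log2 ratio was 1.16 as deposited and 1.11 under that scaling.

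Of 33 members at 1 RPKM or more in WT or empty vector, 5 were at least 2-fold higher in WT and 1 at least 2-fold lower on the log2(RPKM + 1) scale, against 4.53% higher and 1.54% lower of all 11993 genes compared. Another 4 members were under 1 RPKM in both libraries. The 5 higher ones were both ribosomal RNAs, MT-TE, MT-TL1 and MT-TV (valine), and none was a messenger RNA. MT-TE had 63.7 RPKM in WT, against 20.8 in empty vector, from 56 and 46 reads, a ratio of 3.06 (2.04 to 4.63). MT-TL1, whose gene holds the binding site of the factor MTERF1 just behind the ribosomal RNAs, had 16.8 RPKM in WT, against 7.49 in empty vector, from 16 and 18 reads, a ratio of 2.24 (1.07 to 4.65). Those of MT-TV (4 and 2 reads, ratio 5.03, interval 0.722 to 55.7) and the lower MT-TQ (2 and 13 reads, ratio 0.387, interval 0.042 to 1.71) had counting intervals that hold 1. MT-RNR2 and MT-TL1 lie near the 2-fold line, with log2 differences of 1.095 and 1.06 as deposited. They lay below it at 0.83 and 0.82 with equal upper quartiles, at 0.93 and 0.92 with equal sums of the other genes, and at 0.99 and 0.97 in the quantile-normalised values. With equal upper quartiles 3 members were higher in WT and 2 lower, the second of these being MT-TG.

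The transfer RNA sum was 1.25-fold that of empty vector in WT (1.13 to 1.37), with 18 of the 22 single intervals holding a ratio of 1. The other 4, MT-TE, MT-TL1, MT-TL2 at 1.59 (1.15 to 2.18) and MT-TC at 1.66 (1.07 to 2.56), lay above 1 in WT. Summed by precursor, the ratio was 1.19 (1.07 to 1.33) for the light-strand and 1.47 (1.20 to 1.82) for the heavy-strand transfer RNAs, and the intervals overlap. These ratios are as deposited, and the sums by precursor were not rescaled. With equal upper quartiles the log2 ratio of the whole transfer RNA sum fell from 0.32 to 0.05. The light-strand ratio thus need not stay above 1 under that scaling.

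Among the messenger RNAs no member differed 2-fold between WT and empty vector, and 10 of 13 had intervals above a ratio of 1. The highest ratios were those of MT-ATP8 at 1.45 (1.39 to 1.51) and MT-ND6 at 1.38 (1.33 to 1.43), and the lowest was that of MT-CO2 at 0.799 (0.786 to 0.812). These 3 and MT-ND5, at 1.21, kept their direction under every scaling tried, while 7 others changed sign and MT-ND4 and MT-ND4L tied at 0 in the quantile-normalised log2 differences. Set against the protein-coding sum of the same library, which cancels the scaling by depth, the ratios were 1.37 for MT-ATP8, 1.30 for MT-ND6 and 0.755 for MT-CO2. MT-ATP6, on the same messenger RNA as MT-ATP8, stood at 0.968 on that measure.

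The comparison of S264A with empty vector asks the same of the mutant protein, and it shares the empty-vector library with the comparison above. Both ribosomal RNAs were again higher, by less than 2-fold: MT-RNR1 had a ratio of 1.604 (1.495 to 1.72) and MT-RNR2 of 1.41 (1.38 to 1.44), and their sum of 1.43 (1.40 to 1.46). The protein-coding sum had a ratio of 0.987 (0.982 to 0.993), which turned to a log2 ratio of 0.01 in the authors' quantile-normalised values. The 2-fold line was passed upward in S264A by 2 of 32 members and downward by 1, against 2.99% and 0.824% of all 12010 genes, and 5 members were under 1 RPKM in both libraries. The higher ones were MT-TL1 and MT-TF (phenylalanine). MT-TL1 had 16.2 RPKM in S264A against 7.49 in empty vector (17 and 18 reads, ratio 2.16, interval 1.05 to 4.44). MT-TF had 8.04 RPKM in S264A against 2.20 in empty vector (8 and 5 reads, ratio 3.66, interval 1.05 to 14.2). The lower one was MT-TM (methionine), with no read in S264A against 6 in empty vector. Those 6 reads are 2.75 RPKM, below the 3.15 RPKM that 3 reads are worth in S264A, so no ratio is given. MT-TL1 lay close to the line, with a log2 difference of 1.02 as deposited, and its call was lost at 0.99 in the quantile-normalised values, 0.83 with equal upper quartiles and 0.98 with equal sums of the other genes. With equal upper quartiles the balance turned, with 1 member higher in S264A (MT-TF) and 3 lower (MT-TM, MT-TV and MT-TG), and in the quantile-normalised values, as with equal sums of the other genes, 1 was higher and 1 lower. The transfer RNA sum had a ratio of 1.20 (1.097 to 1.32), and 4 single intervals lay above 1, those of MT-TL1, MT-TF, MT-TC at 1.63 (1.06 to 2.49) and MT-TP at 1.29 (1.09 to 1.51). Messenger RNA ratios ran from 0.909 for MT-CO2 to 1.13 for MT-ND1, a narrower range than between WT and empty vector, and 10 of the 13 changed sign under at least 1 scaling. MT-CYB stayed below a ratio of 1 under all of them, and MT-CO2 and MT-ATP6 did so save for a tie at 0 in the quantile-normalised log2 differences.

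The comparison of S264A with WT asks what the replaced serine contributes. The ribosomal RNAs were lower in S264A, with ratios of 0.537 (0.502 to 0.575) for MT-RNR1, 0.659 (0.646 to 0.673) for MT-RNR2 and 0.641 (0.629 to 0.654) for their sum, all short of the 2-fold rule. The protein-coding sum had a ratio of 0.932 (0.926 to 0.938), but its log2 ratio turned to 0.01 both in the authors' quantile-normalised values and with the other genes scaled to the same sum. Past the 2-fold line lay 3 of 33 members, each lower in S264A, against 2.23% lower and 1.55% higher of all 12069 genes, and 4 members were under 1 RPKM in both libraries. The transfer RNA sum had a ratio of 0.967 (0.867 to 1.08), an interval that holds 1, and its log2 ratio of -0.05 turned to 0.07 in the quantile-normalised values, 0.01 with equal upper quartiles and 0.07 with equal sums of the other genes. MT-TE had 23.8 RPKM in S264A, against 63.7 in WT (23 and 56 reads, ratio 0.373, interval 0.219 to 0.616). MT-TV had no read in S264A and 4 in WT, a ratio whose counting interval of 0 to 1.38 holds 1, and MT-TM had no read in S264A and 3 in WT, too few for a ratio.

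MT-ATP8 and MT-ND6 were the messenger RNAs with the lowest ratios of S264A over WT, at 0.693 (0.658 to 0.729) and 0.785 (0.754 to 0.817), and MT-CO2 had the highest ratio at 1.14 (1.12 to 1.16). MT-ATP8 and MT-CO2 kept these directions under every scaling tried, and MT-ND6 did not in the quantile-normalised values. Relative to the protein-coding sum the ratios were 0.743 for MT-ATP8, 0.842 for MT-ND6 and 1.22 for MT-CO2. With at least 20 reads required in each library, a setting chosen after seeing the data that leaves 22 members, the calls were MT-RNR1, MT-RNR2 and MT-TE for WT against empty vector, none for S264A against empty vector and MT-TE for S264A against WT.

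**Figure D3:**
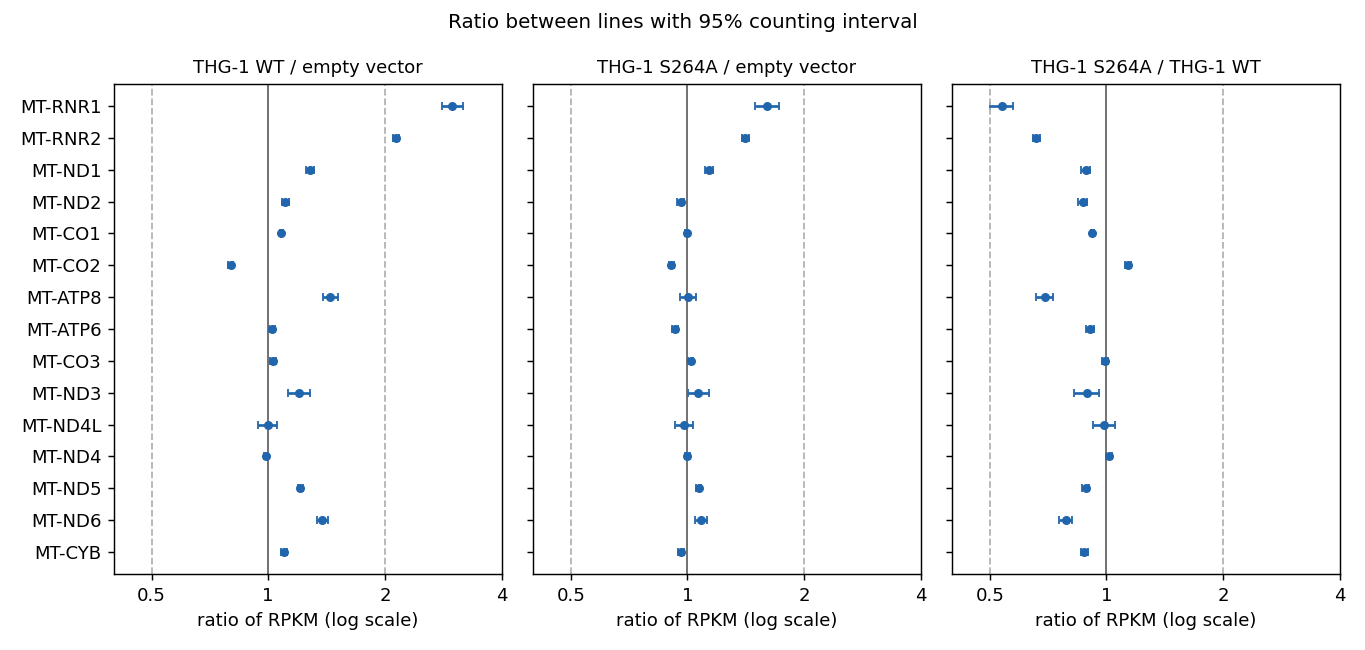
Ratio of RPKM between lines on a log axis for the ribosomal RNA and protein-coding genes in genome order from the top, with WT over empty vector, S264A over empty vector and S264A over WT from left to right. Bars are 95% counting intervals and dashed lines mark 2-fold, which is passed by MT-RNR1 at 2.99 and MT-RNR2 at 2.14 in the left panel alone.

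Ratios within a library do not depend on any common factor by which the library is scaled. The ribosomal RNA sum was 4.82% of the protein-coding sum in S264A, 7.001% in WT and 3.32% in empty vector. The transfer RNA sum was 4.12% of it in S264A, 3.97% in WT and 3.38% in empty vector, so that the transfer RNAs were nearer to one another between the lines than the ribosomal RNAs. MT-RNR2 stood at 99.7% of the level of MT-ND1, the first messenger RNA behind it on the precursor, in S264A, at 134% in WT and at 80.2% in empty vector. MT-ND6 stood at 3.76% of the summed level of the messenger RNAs of the other strand in S264A, 4.50% in WT and 3.42% in empty vector. Use of the strand in counting is not given, so reads of the heavy-strand precursor could be among those of MT-ND6. MT-ATP8 stood at 50.6% of MT-ATP6 in S264A, 66.2% in WT and 46.9% in empty vector, whereas MT-ND4L over MT-ND4 was 27.2%, 28.0% and 27.7%. The balance of reads between MT-ATP8 and MT-ATP6 was thus furthest from the others in WT, and that of MT-ND4L and MT-ND4 was nearly level. Since MT-ATP8 and MT-ATP6 lie on the same messenger RNA and share bases, this is a balance of read coverage and assignment. The part of either in the WT value was not tested.

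**Figure D4:**
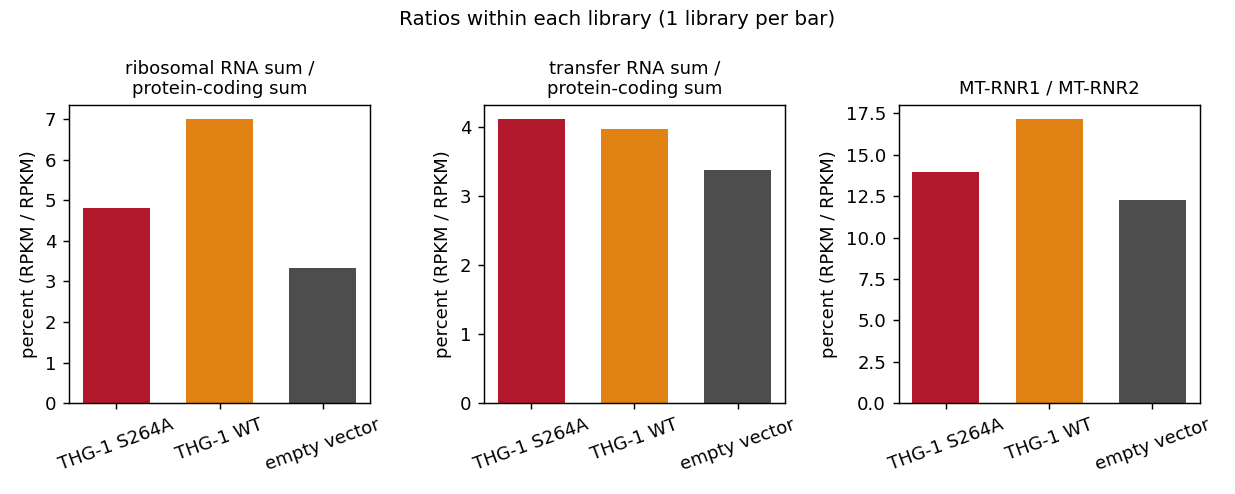
Percentages within each library, with bars from 0 for S264A, WT and empty vector from left to right. The ribosomal RNA sum over the protein-coding sum is 4.82%, 7.001% and 3.32%, the transfer RNA sum over it is 4.12%, 3.97% and 3.38%, and MT-RNR1 over MT-RNR2 is 13.98%, 17.2% and 12.3%.

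Genes near the ribosomal RNAs in kind give further values. Nuclear copies of mitochondrial DNA share reads with the members, and 188 genes with symbols of such copies summed to 11.03 RPKM in S264A, 17.7 in WT and 7.08 in empty vector, with 20 above 0. The highest was MTRNR2L12, a near-identical copy of MT-RNR2, with 6.57 RPKM in S264A, 12.4 in WT and 3.43 in empty vector. Reads could be split between it and MT-RNR2, and its values were small beside those of MT-RNR2. The libraries also held abundant RNAs that carry no poly(A) tail, chosen here after their values were seen. RN7SL3, a signal recognition particle RNA, had 475 RPKM in S264A, 887 in WT and 287 in empty vector. The far higher RN7SL2, of the same particle, had 23963 RPKM in S264A, 29455 in WT and 22676 in empty vector, and RPPH1, the RNA of nuclear RNase P, had 10605 in S264A, 12266 in WT and 8582 in empty vector. As deposited, all 3 were highest in WT and lowest in empty vector, as were the ribosomal RNAs. The order of these 3 was not checked under the other scalings. RN7SK, which holds the elongation factor P-TEFb, had 21501 RPKM in S264A, 16386 in WT and 15558 in empty vector, in another order. RMRP, the RNA of RNase MRP, was highest in empty vector, with 14880 RPKM in S264A, 17178 in WT and 18197 in empty vector. The sum of histone genes, most without a tail, was lowest in WT, with 14213 RPKM in S264A, 12355 in WT and 14433 in empty vector. The sources do not say whether rRNA was removed or poly(A) RNA selected, and the part of such a step in the ribosomal RNA difference was not tested. The sum of 4 simple epithelial markers was also highest in WT, at 643 RPKM in S264A, 938 in WT and 691 in empty vector, and so was CD68. Of these markers KRT18 had 104 RPKM in S264A, 246 in WT and 101 in empty vector, whereas KRT19, the most abundant, had 381 in S264A, 401 in WT and 429 in empty vector. Their part in the result was not tested.

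The respiratory chain joins subunits from both genomes, and the levels of the mitochondrial ones far exceeded those of their nuclear partners. The median mitochondrial subunit of complex I was at 59.1 times the median of 37 nuclear subunits in S264A, 65.3 times in WT and 51.7 times in empty vector. For complex III, with MT-CYB against 9 nuclear subunits, it was at 55.5 times in S264A, 49.0 times in WT and 39.4 times in empty vector. For complex IV, with 11 nuclear subunits, it was at 65.02 times in S264A, 65.4 times in WT and 78.2 times in empty vector. For ATP synthase it was at 82.1 times in S264A, 107 times in WT and 78.9 times in empty vector. The nuclear list of ATP synthase has 18 genes and includes the gene of an inhibitor, which is not a subunit. Nuclear complex I genes had a median log2 difference of -0.05 for WT over empty vector, -0.09 for S264A over empty vector and -0.07 for S264A over WT, and the 7 mitochondrial ones had 0.26, 0.09 and -0.18 in these comparisons. Nuclear complex III genes had -0.08 for WT over empty vector, -0.36 for S264A over empty vector and -0.32 for S264A over WT, with all 9 below 0 in both comparisons of S264A and none past 2-fold. Nuclear complex IV genes had -0.21 for WT over empty vector, -0.27 for S264A over empty vector and -0.12 for S264A over WT, and nuclear ATP synthase genes had -0.20, -0.20 and -0.06 in these comparisons. For S264A over empty vector 10 of 11 complex IV genes, 16 of 18 ATP synthase genes and 29 of 37 complex I genes lay below 0, so that values below 0 were not particular to complex III. CYC1, cytochrome c1, the highest of the nuclear complex III genes, had 42.2 RPKM in S264A, 58.3 in WT and 61.4 in empty vector. Over all genes compared the median was -0.01 for WT over empty vector, 0.02 for S264A over empty vector and 0.02 for S264A over WT.

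Within the protein-coding sum, complex IV held 45.6% in S264A, 42.4% in WT and 46.3% in empty vector. ATP synthase held 15.6% in S264A, 17.7% in WT and 16.2% in empty vector. Complex I held 31.9% in S264A, 32.5% in WT and 30.5% in empty vector, and complex III between 6.88% and 7.30%. The lower share of complex IV in WT goes with the lower level of MT-CO2 there.

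**Figure D5:**
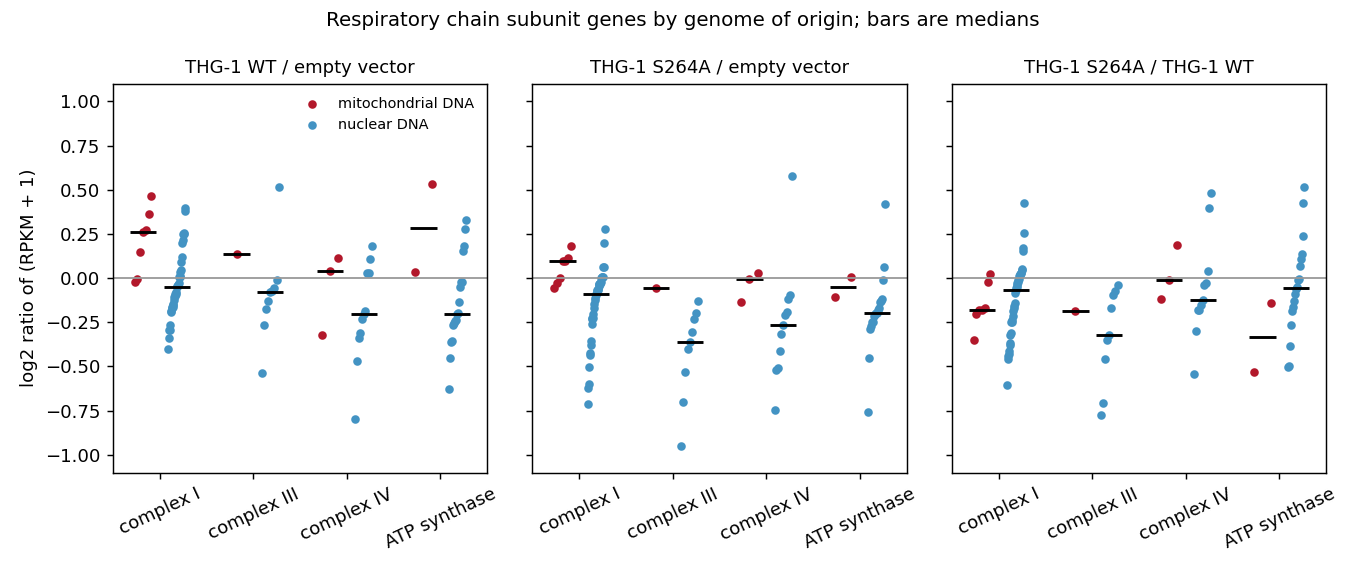
Log2 ratio of (RPKM + 1) of each listed gene by complex. Mitochondrial genes are in red and nuclear genes in blue, with a bar at each median. Panels from left to right are WT over empty vector, S264A over empty vector and S264A over WT. All points lie within 2-fold, and the nuclear complex III points lie below 0 in the middle and right panels, with medians of -0.36 and -0.32.

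Among nuclear genes of mitochondrial function none differed 2-fold. Over 10 lists with 152 genes, which include the subunits above and complex II, no gene passed the 2-fold rule in any of the 3 comparisons, beside the 6.07%, 3.81% and 3.78% of all genes that passed it in either direction for WT over empty vector, S264A over empty vector and S264A over WT. The 9 transcription genes had median log2 differences of -0.06, -0.08 and -0.07 in these comparisons. TFAM, which packages mitochondrial DNA and starts its transcription, had 7.70 RPKM in S264A, 9.04 in WT and 8.17 in empty vector. The 22 genes of RNA processing and stability had medians of -0.03, 0.01 and 0.00, and HSD17B10, a subunit of mitochondrial RNase P, had 29.2 RPKM in S264A, 32.3 in WT and 22.05 in empty vector. The 13 genes of mitochondrial DNA maintenance had medians of -0.05, -0.02 and 0.08 in the same comparisons. The 22 mitochondrial aminoacyl-tRNA synthetases, which charge the transfer RNAs, had -0.05, -0.08 and 0.04, and the highest, KARS, which makes both the cytosolic and the mitochondrial lysine enzyme, had 47.1 RPKM in S264A, 32.5 in WT and 28.0 in empty vector. The 7 biogenesis regulators, 6 of them compared, had medians of 0.22 for WT over empty vector, 0.06 for S264A over empty vector and -0.22 for S264A over WT. ESRRA, an orphan nuclear receptor of this group, had 26.0 RPKM in S264A, 31.4 in WT and 21.0 in empty vector. The medians of the transcription and processing genes lay within 0.1 of the median of all genes in each comparison. Single genes spread further. Transcription genes ran from -0.87 (MTERFD1) to 0.60 (TFB2M) for WT over empty vector. For S264A over empty vector they ran from -0.79 (MTERFD1) to 0.09 (POLRMT), and for S264A over WT from -0.64 (TFB2M) to 0.32 (MTERF). Processing genes ran from -0.37 to 0.77, from -0.28 to 0.81 and from -0.45 to 0.43 in these comparisons.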

How the data were processed

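RNA sequencing of 3 lines, 1 library each, was analysed from 1 deposited table. Per the file headers it holds, for each library, expression values and normalised expression values. The expression values are RPKM computed by the authors per library. The normalised ones, as a test of the values showed, are RPKM quantile-normalised across libraries by the authors, and served as an alternative. The submitters' processing notes name the build hg19. Not given in the sources used here are aligner, counter, annotation, library selection, strandedness and read length. Sequences and positions come from GENCODE release 29 on GRCh38, a build other than that of the table.

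Depth and whole reads were recovered from the RPKM of the 37 mitochondrial genes and their GENCODE lengths: 111 of 111 values (100%) were whole within 0.001 reads. The recovery was first checked on made-up libraries of known depth. No count model was run. Ratios of single genes are plain ratios of RPKM with exact Clopper-Pearson 95% intervals from the reads; intervals of sums use the delta method. Reads are not independent molecules, and intervals and floors of 3 reads cover counting error only.

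With 1 library per line no p-value is given. Genes at 1 RPKM or more in at least 1 of both libraries were compared on log2(RPKM + 1), which understates the difference of low genes, and called at 2-fold. Where a symbol had several rows (234 of 55773), the highest mean was taken. The members, the comparisons and the lists were chosen with earlier results of these data known. Named genes were all 37 members, the member of each nuclear list with the highest mean RPKM, nuclear list members past 2-fold, and the 3 highest nuclear copies of mitochondrial DNA. The transcription genes at the ends of their range were named as well. Alternatives were another scaling, pseudocount or filter. Python 3.11.15 was used with pandas 2.3.3, numpy 2.4.6 and scipy 1.17.1.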

Additional observations from a re-analysis of the deposited data

How the results depend on the processing

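No paired analysis was possible because each line has 1 library. Leaving out a library would end its comparisons and was not done. Values here are log2 ratios of summed RPKM unless named otherwise, and they carry counting error only.

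Both ribosomal RNAs and their sum kept their direction in all 3 comparisons under all scalings tried. For WT over empty vector their sum was 1.16 as deposited, 1.05 in the quantile-normalised values, 0.89 with equal upper quartiles, 1.00 with equal sums of the other genes and 1.08 with equal protein-coding mitochondrial sums, a setting added after seeing the data. For S264A over empty vector it was 0.52, against 0.66, 0.31 and 0.47 under the first 3 of these. For S264A over WT it was -0.64, against -0.39, -0.58, -0.53 and, with the added setting, -0.54.

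The protein-coding sum changed sign between settings in all 3 comparisons. For WT over empty vector it was 0.083 as deposited, 0.0065 quantile-normalised, -0.18 with equal upper quartiles, -0.078 with equal sums of the other genes and 0.046 without overlapping or opposite-strand members. For S264A over empty vector it was -0.019, against 0.013, -0.22 and -0.065 under the first 3. For S264A over WT it was -0.10, against 0.0067, -0.042, 0.013 and, without those members, -0.062. The transfer RNA sum for WT over empty vector was 0.32, against 0.16, 0.052 and 0.16, and for S264A over empty vector it was 0.27, against 0.063 with equal upper quartiles. The direction of the transfer RNA sum for S264A over WT was -0.049 as deposited and 0.071 quantile-normalised.

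The count of members at least 2-fold different between WT and empty vector was 6, against 3 with a pseudocount of 5 RPKM and 3 with at least 20 reads in each library, an added setting. For S264A against empty vector it was 3, against 5 with a pseudocount of 0.1 RPKM, 0 with 5 RPKM and 0 with at least 20 reads. For S264A against WT it was 3, against 1 with a pseudocount of 5 RPKM, 1 with a filter at 5 RPKM and 1 with at least 20 reads. These settings by their construction give less weight to transfer RNAs of few reads or leave them out, except the pseudocount of 0.1 RPKM, which gives them more. The share of the members was 6.79% of summed RPKM in S264A, 6.85% in WT and 6.95% in empty vector, against 1.81%, 1.99% and 1.79% of reads, since RPKM sums weight short genes more. Of 510 values of single members under alternatives, 484 stayed on their side of the 2-fold line, 17 dropped below it and 9 passed it. The depth of S264A and WT limits the transfer RNAs most, 6 and 4 of which had no read.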

Other observations

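The other nuclear copies of MT-RNR2 above 1 RPKM were low. MTRNR2L8 had 1.16 RPKM in S264A, 1.89 in WT and 0.943 in empty vector, and MTRNR2L6 had 1.03, 1.19 and 0.172. Together with MTRNR2L12, the 13 genes of this family summed to 9.99 RPKM in S264A, 16.2 in WT and 5.38 in empty vector.

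MIR3648 and MIR3687, chosen after their values were seen, lie in the transcribed spacer of the nuclear ribosomal DNA. Their reads are of the spacer and not of the nuclear ribosomal RNAs themselves. MIR3648 had 21936 RPKM in S264A, 26906 in WT and 22234 in empty vector, a WT over empty vector ratio of 1.21, and MIR3687 had 13255, 16305 and 13738, a ratio of 1.19. The mitochondrial ribosomal RNA ratio in that comparison was 2.23, an unlike measure, since it is of the ribosomal RNAs and not of a spacer. The 89 histone genes with HIST symbols, most of whose messenger RNAs end without a poly(A) tail, summed to 14213 RPKM in S264A, 12355 in WT and 14433 in empty vector. Of small nuclear-encoded RNAs without a tail, RMRP, the RNA of RNase MRP, had 14880 RPKM in S264A, 17178 in WT and 18197 in empty vector.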
